A study of Mus musculus with 18 samples.

Results

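The respiratory chain is built from proteins encoded in the nucleus and in the mitochondrial genome, and the mRNAs described here are those of its nuclear genes. Members were chosen by symbol among RefSeq protein-coding genes of mm10: symbols that start with Nduf, Uqcr or Atp5, with Sdh followed by a to d, or with Cox4 to Cox8, and Cycs and Cyc1. The symbols gave 102 genes, and all of them were used but Ndufb4b, which has no curated transcript. Of these genes, 53 carried at least 1 site of 5-methylcytosine (m5C), and these mRNAs held 397 of the 18059 distinct mRNA sites found in 9 libraries. Over all 21013 protein-coding genes, 2607 carried a site. No member site lay in an exon of a second gene.

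The study deprived cultured cells of oxygen and glucose (OGD) for 1.5 h or 3 h, followed by 24 h of reoxygenation (R). The groups are control (untreated), OGD/R 1.5 h and OGD/R 3 h, with 3 libraries each, and the cells are labelled as neurons from the cerebral cortex of C57BL/6 mouse fetuses at day 18. RNA was treated with bisulfite, which turns unmethylated cytosine into uracil and leaves m5C to be read as cytosine. Each library has its own list of called sites with a score that grows with the coverage and the methylation level together, so that neither can be read from it. Read depth is unknown. An mRNA with more reads lets more of its cytosines reach the coverage needed for a call. More RNA and more methylated cytosines therefore cannot be told apart in a count of sites, nor can more cells of a type and more RNA per cell. An unmethylated cytosine that bisulfite left unconverted would also be read as cytosine. How many listed sites are of this kind was not tested. The lists held 6021, 6254 and 5907 sites in the control libraries, 5423, 5745 and 5684 in OGD/R 1.5 h, and 7772, 7266 and 7376 in OGD/R 3 h. Nothing in the labels says that the libraries of a group come from separate cultures, so each group was counted as 1 sample. A mean is followed by ± the SD of the 3 libraries, which is their spread only. No p-value is given.

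The labelled cell type was set against marker genes. None of 18 neuronal markers carried a site in any library, including all 5 defining markers, Tubb3, Map2, Rbfox3, Snap25 and Syt1. All 21 markers of intestinal epithelium carried sites, with none of the 5 defining markers missing. Their summed sites per library were 113, 117 and 98 in the control libraries, 69, 70 and 68 in OGD/R 1.5 h, and 260, 249 and 260 in OGD/R 3 h, and Fcgbp held the most distinct sites, 124. Erythroid markers carried sites in 2 of 7 genes and neutrophil markers in 3 of 8, and both lists were empty in every control and OGD/R 1.5 h library. In each OGD/R 3 h library the erythroid list held 31 sites, led by Hbb-bs with 25 distinct sites, and the neutrophil list held 21, led by S100a8 with 9. Smooth muscle and fibroblast markers, 5 of 8 with a site, held 15, 12 and 7 sites in the control libraries, 10, 10 and 8 in OGD/R 1.5 h, and 9, 11 and 13 in OGD/R 3 h, led by Myh11 with 26 distinct sites. Of 4 astrocyte markers, Aldh1l1 carried 3 distinct sites and Gfap, Aqp4 and Slc1a3 carried none. The site lists therefore go against the label in all 9 libraries, and the groups are named below only by their labels. An mRNA without a listed site may still be present.

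As background, the chain passes electrons from NADH and succinate to oxygen. Complex I oxidises NADH, complex II oxidises succinate, complex III hands electrons to cytochrome c, complex IV reduces oxygen, and complex V, the ATP synthase, uses the proton gradient that complexes I, III and IV build. Neurons depend on this pathway for most of their ATP, and loss and return of oxygen act directly on it.

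The stretches below show where some of the sites lie. In Atp5b, Ndufb8 and Sdhaf1 the cytosines called in all 3 libraries differ in part between groups, while Atp5e and Ndufb11 have such cytosines in OGD/R 3 h only. Each is the 30 nt window of the mRNA, 5′ to 3′, that holds the most cytosines called in all 3 libraries of at least 1 group, read from the mm10 sequence. Capitals mark the cytosines called in all 3 libraries of the group named. Positions are counted in the mRNA from 0 at the A of the start codon.

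Atp5b (plus strand, chr10:128083345-128083374, positions 18 to 47, coding) has 13 cytosines, of which 4, 1 and 6 were called in all 3 libraries of the respective group.
Atp5b control: CgtgtggcCtCggcctCggcctccggggcc
Atp5b OGD/R 1.5 h: cgtgtggcctcggcCtcggcctccggggcc
Atp5b OGD/R 3 h: cgtgtggcCtCggCCtcggcCtccggggcC

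Ndufb8 (minus strand, chr19:44555333-44555362, positions 39 to 68, coding) had no such site in control, and 3 in each OGD/R group, of which 1 is common to both.
Ndufb8 OGD/R 1.5 h: ctgcagaggacaacCcggggcgtggtgCCa
Ndufb8 OGD/R 3 h: CtgcagaggacaaccCggggcgtggtgcCa

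Atp5e (minus strand, chr2:174464007-174464036, positions -40 to -11) and Ndufb10 (minus strand, chr17:24724362-24724391, positions -57 to -28) carry their windows in the 5′ untranslated region (5′UTR). The Atp5e stretch was called in all 3 libraries of OGD/R 3 h at 8 of its 15 cytosines, and at none in all libraries of the other groups.
Atp5e OGD/R 3 h: CgaCccagcggttctgcCCgaCgcgcCCgC
Ndufb10 OGD/R 1.5 h: ccagcggatccggaCgtggagcgagtagaa
Ndufb10 OGD/R 3 h: ccagcggatcCggaCgtggagCgagtagaa

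Ndufb11 (minus strand, chrX:20617063-20617092, positions 168 to 197, coding) and Sdhaf1 (minus strand, chr7:30322254-30322283, positions 46 to 75, coding) are shown for the 5 sites that Ndufb11 gained and for the Sdhaf1 cytosine with the highest score in OGD/R 1.5 h.
Ndufb11 OGD/R 3 h: CcagaaccCgaggaCgaaaacgtctaCgCg
Sdhaf1 control: gcgagctgctgCgCgccgggCgcgggacgc
Sdhaf1 OGD/R 1.5 h: gcgagctgctgcgcgccgggCgcgggacgc
Sdhaf1 OGD/R 3 h: gcgagctgctgcgcgcCgggcgcgggacgc

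Respiratory chain mRNAs held 51, 53 and 53 sites in the control libraries, 77, 92 and 86 in OGD/R 1.5 h, and 132, 130 and 138 in OGD/R 3 h. The 3 groups did not overlap, and the order was control, OGD/R 1.5 h, OGD/R 3 h. The means were 52.3 ± 1.15, 85 ± 7.55 and 133 ± 4.16, which is a log2 ratio to control of 0.70 for OGD/R 1.5 h and 1.35 for OGD/R 3 h. All mRNA sites did not follow the same order: their means were 3944 ± 180 in the control libraries, 3604 ± 128 in OGD/R 1.5 h and 4914 ± 308 in OGD/R 3 h. Per 1000 mRNA sites of the library, respiratory chain mRNAs therefore held 13.1, 12.8 and 13.9 in the control libraries, 21.9, 25.9 and 22.9 in OGD/R 1.5 h, and 25.1, 27.5 and 29.1 in OGD/R 3 h. On this scale every OGD/R library stood above every control library, while the ranges of the OGD/R groups overlapped.

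The number of member genes with a site was 23, 22 and 23 in the control libraries, 30, 32 and 31 in OGD/R 1.5 h, and 33, 31 and 32 in OGD/R 3 h. Over all protein-coding genes the mean number with a site went the other way, from 1356 ± 40.1 in control to 1267 ± 3.46 and 1129 ± 30.9. A member gene with a site held a mean of 2.31 ± 0.0960 sites in the control libraries, 2.74 ± 0.157 in OGD/R 1.5 h and 4.17 ± 0.158 in OGD/R 3 h. Between the OGD/R groups the number of genes differed by no more than the spread, and the sites per gene by more than it. Of the 53 member genes with a site, 20 had one in every group, or 37.7%, against 31.9% of all genes with a site. In both OGD/R groups and not in control there were 12, or 22.6%, against 6.75%, and in control only 4, or 7.55%, against 16.0%. A further 6 had sites in control and OGD/R 1.5 h, or 11.32%, against 15.3%. In control and OGD/R 3 h there were 3, or 5.66%, against 6.252%. There were 3 in OGD/R 1.5 h only, or 5.66%, against 13.04%, and 5 in OGD/R 3 h only, or 9.434%, against 10.7%.

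Members make up 0.16% of the cytosines of all annotated mRNAs. Over all member mRNAs, the distinct sites of a group's 3 libraries came to 3.97 sites per 1000 cytosines in the control libraries, 6.10 in OGD/R 1.5 h and 8.70 in OGD/R 3 h, against 0.438, 0.453 and 0.531 over all protein-coding genes. The share of member genes with a site was 32.7%, 40.6% and 39.6%, against 8.62%, 8.31% and 6.9% of all genes. The intestinal marker list, per 1000 mRNA sites, was at 27.7 ± 1.71 in the control libraries, 19.2 ± 0.889 in OGD/R 1.5 h and 52.3 ± 2.78 in OGD/R 3 h, so it was lower than control in the group where the respiratory chain first stood above it and higher in the other. Its part in the counts of the respiratory chain was not tested.

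By complex, the order of the groups differed. Complex I held 12.3 ± 2.52 sites per library in the control libraries, 28 ± 6.08 in OGD/R 1.5 h and 36 ± 2.65 in OGD/R 3 h, where the OGD/R groups overlapped at 24 to 35 and 34 to 39 sites. Complex IV held 10.3 ± 1.53, 20.3 ± 2.52 and 33.3 ± 2.08, with no overlap between any of the groups. Complex V was alike in control and OGD/R 1.5 h, with 21, 26 and 21 against 19, 24 and 23 sites, and stood at 52, 51 and 55 in OGD/R 3 h. Complex III went from 3 sites in each control library to 8, 9 and 12 in OGD/R 1.5 h and 8, 5 and 9 in OGD/R 3 h, and the OGD/R groups overlapped. Complex II was at 0, 1 and 1, then 5, 3 and 3, then 1, 4 and 4. The assembly factors, which help build the complexes and are not part of them, had 3, 3 and 4 sites in the control libraries, 2, 1 and 1 in OGD/R 1.5 h, and 1 in each OGD/R 3 h library. They were the only group of members with fewer sites in every OGD/R library than in every control library. This rests on Sdhaf1, with 3 sites in each control library and 1 in each OGD/R library. Ndufaf4 had at most 1 site in a library, and the rest had none. A list of 27 further assembly factors, given below, had no site in control and 3, 4 and 3 in OGD/R 3 h.

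**Figure D1:**
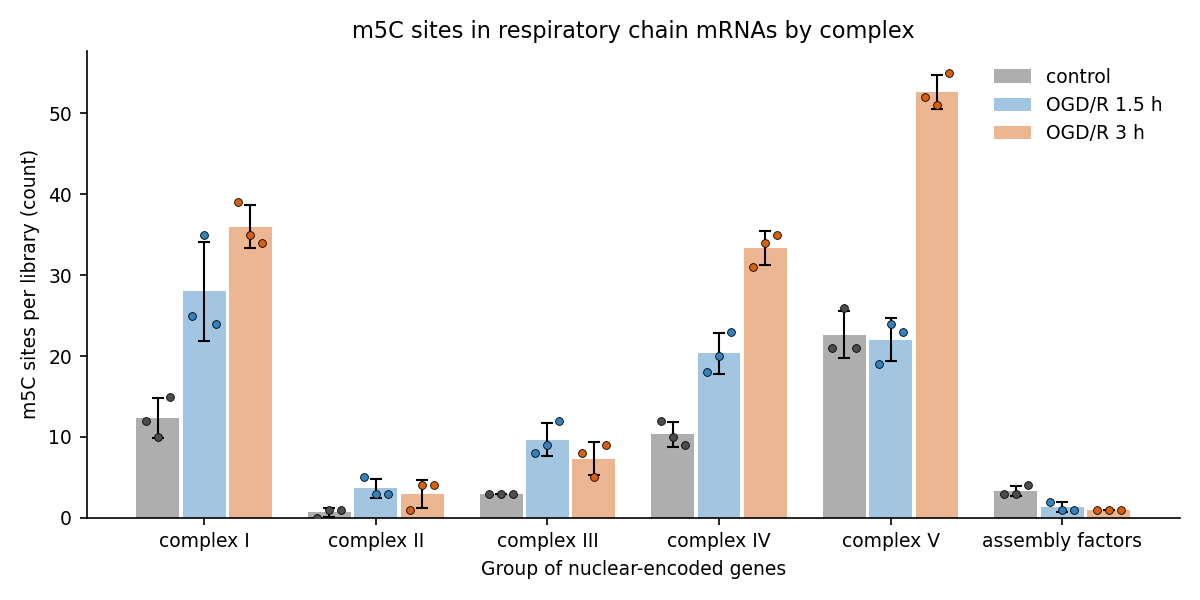
Sites of m5C per library (count) in the nuclear-encoded genes of complexes I to V and in assembly factors. Points are libraries, bars are group means and error bars are the SD over 3 libraries. Complex V stands apart in OGD/R 3 h, at 51 to 55 sites, while its control and OGD/R 1.5 h libraries lie between 19 and 26.

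The complexes differed in how much of their mRNA carried sites. Over all libraries, complex V held 124 distinct sites, or 34.1 per 1000 cytosines of its 17 mRNAs, and complex IV held 97, or 33.6 per 1000 cytosines of 18 mRNAs. Complex III held 14.7 per 1000, complex I 12.4, complex II 9.39 and the assembly factors 1.42. Complex III had a site in 8 of 9 genes, complex V in 13 of 17, complex II in 3 of 4, complex I in 20 of 40, complex IV in 7 of 18 and the assembly factors in 2 of 12. Complex IV thus ranked high in density with few genes, since Cox4i1 alone held 71 of its sites.

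A gene was called higher or lower where the site counts of all 3 libraries of a group lay above or below all 3 of the other group. In OGD/R 3 h against control, 19 of the 50 member genes with a site in these libraries were higher, or 38%, against 18.6% of all 2267 genes, and 4 were lower, or 8%, against 18.7%. In OGD/R 1.5 h against control, 11 of 48 were higher, or 22.9%, against 8.55% of all 2328 genes, and 6 were lower, or 12.5%, against 15.1%. Against each other, 12 of 49 members were higher in OGD/R 3 h than in OGD/R 1.5 h, or 24.5%, against 19.9% of all 2189 genes, and 6 were lower, or 12.2%, against 13.4%. With counts divided by the mRNA sites of the library, 9 were higher, or 18.4%, against 17.8% of all genes, and 11 lower, or 22.4%, against 20.2%. With isolated sites only, none other within 10 nt, 4 of 48 were higher, or 8.33%, against 12.5%, and 3 lower, or 6.25%, against 11.1%. With scores of at least 10 only, 3 of 42 members were higher in OGD/R 1.5 h than in control, or 7.14%, against 4.41% of all 1950 genes. At this setting 4 of 42 were lower, or 9.52%, against 9.54%, so more members were lower than higher. In OGD/R 3 h, 11 of 44 were higher than in control, or 25%, against 10.5% of all 1903 genes, and 3 were lower, or 6.82%, against 9.04%. The 2 comparisons with control share their control libraries. The share of members called higher was above the share over all genes in both of them, while the comparison of the OGD/R groups depended on the setting. There, with scores of at least 10, 16.3% of members were higher, against 13.2% of all genes, with sites called in at least 2 libraries 45.7% against 39.3%, and with sites called in all 3 libraries 62.1% against 57.3%.

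**Figure D2:**
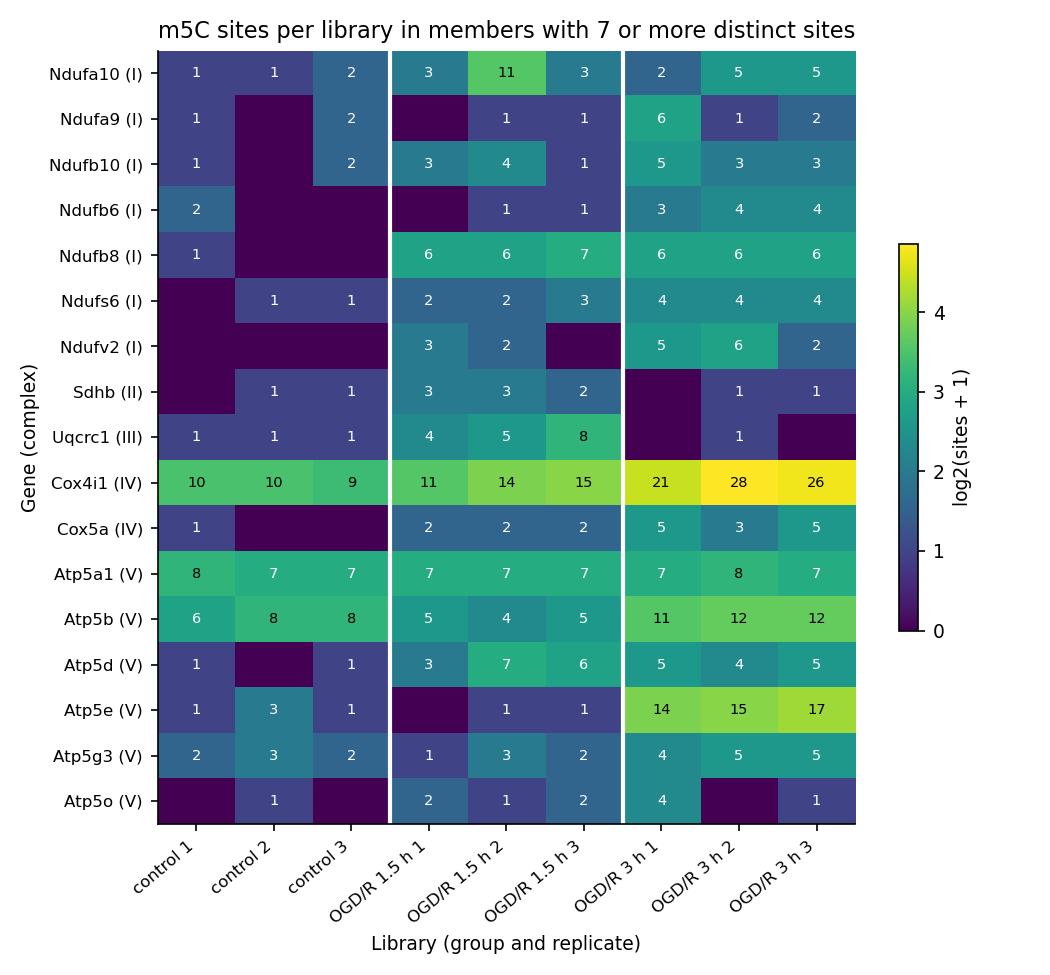
Sites per library in the members with 7 or more distinct sites, with genes in rows, ordered by complex, and the 9 libraries in columns. The number in a cell is the count of sites, an empty cell is 0, and colour is log2(sites + 1). Atp5e reaches 14 to 17 sites in OGD/R 3 h, and Uqcrc1 is highest in OGD/R 1.5 h, at 4 to 8.

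Among the subunits of complex I, Ndufb8, an accessory subunit of the membrane arm, had 1, 0 and 0 sites in the control libraries, 6, 6 and 7 in OGD/R 1.5 h, and 6 in each OGD/R 3 h library. Its counts were alike in the OGD/R groups and above control in both. All its sites lay within 100 nt of the start codon, and the stretch printed above holds 5 of its positions. Ndufs6, an accessory subunit of the NADH-oxidising module, rose in steps, with 0, 1 and 1 sites in the control libraries, 2, 2 and 3 in OGD/R 1.5 h, and 4 in each OGD/R 3 h library. No pair of its groups overlapped. Of its 8 distinct sites, 3 lie in stretches with a near-identical second copy in the genome.

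Ndufb11, a membrane-arm subunit encoded on the X chromosome, had no site in the control libraries, 0, 0 and 1 in OGD/R 1.5 h and 5 in each OGD/R 3 h library, the same 5 cytosines in all 3. All of them lie in a stretch with 1 near-identical copy elsewhere in the genome, so reads of the copy could have added to them.

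Ndufb6, a further membrane-arm subunit, had 2, 0 and 0 sites in the control libraries, 0, 1 and 1 in OGD/R 1.5 h and 3, 4 and 4 in OGD/R 3 h. It was high in OGD/R 3 h alone. Ndufs5 had its single site, in a stretch with a second copy, in every OGD/R 1.5 h library and in no other. Ndufb10 had 1, 0 and 2 sites in the control libraries, 3, 4 and 1 in OGD/R 1.5 h, and 5, 3 and 3 in OGD/R 3 h, with OGD/R 3 h above control. Its site at position -43 was called in all 6 OGD/R libraries, with scores of 14, 75 and 15 in OGD/R 1.5 h and 20, 113 and 5 in OGD/R 3 h.

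The complex I genes with the most distinct sites were Ndufa10, Ndufv2, Ndufa9 and Ndufb10, with 21, 16, 10 and 10, and Ndufb8 also had 10. Ndufa10, an accessory subunit, had 1, 1 and 2 sites in the control libraries, 3, 11 and 3 in OGD/R 1.5 h, and 2, 5 and 5 in OGD/R 3 h, so its mean in OGD/R 1.5 h rests on the library with 11. All of its sites lay in the coding sequence outside the codon regions. Ndufv2, which holds an iron-sulfur cluster of the NADH-oxidising module, had no site in the control libraries, 3, 2 and 0 in OGD/R 1.5 h and 5, 6 and 2 in OGD/R 3 h. It was above control in every OGD/R 3 h library, with 10 of its 13 distinct sites there in the stop codon region. Ndufa9, an accessory subunit at the junction of the arms, had 1, 0 and 2, then 0, 1 and 1, then 6, 1 and 2 sites, and all groups overlapped.

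Complex II is succinate dehydrogenase. Its iron-sulfur subunit Sdhb had 0, 1 and 1 sites in the control libraries, 3, 3 and 2 in OGD/R 1.5 h, and 0, 1 and 1 in OGD/R 3 h. It was high in OGD/R 1.5 h alone, and the control and OGD/R 3 h libraries were alike. Sdhc, a membrane anchor, had no site in the control libraries, 1, 0 and 0 in OGD/R 1.5 h and 1, 2 and 2 in OGD/R 3 h, all in the 3′UTR. One of these, on the minus strand at chr1:171129379, had scores of 16, 16 and 18 in OGD/R 3 h. Sdha, the flavoprotein, had at most 1 site in a library. The assembly factor Sdhaf1, which serves the insertion of iron-sulfur clusters into Sdhb, had 3 sites in each control library and 1 in each OGD/R library.

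The cytosine of Sdhaf1 at position 66 had the highest median score of any member site in OGD/R 1.5 h. It scored 106, 643 and 120 in control and 877, 1000 and 675 in OGD/R 1.5 h, where 1000 is the largest score a list can hold, and it was not listed in OGD/R 3 h. The groups that list it did not overlap. In OGD/R 3 h a cytosine 4 nt upstream was called instead, with scores of 3, 3 and 2. Ndufaf4, which serves the assembly of complex I, was the only other assembly factor among the members with sites, 1 in a control library and another in an OGD/R 1.5 h library.

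In complex III, Uqcrc1, a core protein on the matrix side, had 1 site in each control library, 4, 5 and 8 in OGD/R 1.5 h, and 0, 1 and 0 in OGD/R 3 h. It was high in OGD/R 1.5 h alone. Its coding site on the plus strand at chr9:108944712 had scores of 82, 79 and 147 there and was not listed in the other groups. Uqcrq, a small subunit, had 1 site in every control and OGD/R 1.5 h library and 3, 2 and 3 in OGD/R 3 h.

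Uqcr10, also a small subunit, had its single site in all control libraries, with scores of 63, 11 and 28, and in no OGD/R library. Uqcr11 and Cyc1, which is cytochrome c1, had no site in control and at most 2 in a library of the OGD/R groups. The 4 distinct sites of Uqcr11 all lie in stretches with a second copy. Cycs, the gene of cytochrome c itself, carried no site in any library.

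Complex IV was led by Cox4i1, a nuclear subunit known for its role in regulating the enzyme. Its libraries held 10, 10 and 9 sites in the control libraries, 11, 14 and 15 in OGD/R 1.5 h, and 21, 28 and 26 in OGD/R 3 h. No pair of groups overlapped, but sites called in all 3 libraries of a group numbered 4, 5 and 4, of 17, 24 and 52 distinct sites, so the higher count in OGD/R 3 h comes from sites of 1 or 2 libraries. With 71 distinct sites on 200 cytosines, it had 260 sites per 1000 cytosines in OGD/R 3 h, the highest density of any member in that group, followed by Atp5e with 150. It supplied 17.2% of the distinct member sites in the control libraries, 15.8% in OGD/R 1.5 h and 24% in OGD/R 3 h.

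The sites of Cox4i1 also lay in different regions. In the stop codon region, the 100 nt on either side of the stop codon, its libraries held no site in the control libraries, 2, 3 and 3 in OGD/R 1.5 h, and 11, 15 and 9 in OGD/R 3 h. In the remaining coding sequence they held 9, 9 and 8, then 9, 11 and 12, then 9, 12 and 16, so that the groups overlapped. The cytosine at position 317 had scores of 54, 81 and 76 in control, was listed in 1 OGD/R 1.5 h library with 14, and in 2 OGD/R 3 h libraries with 7 and 4. The 1 at position 294 had 125, 64 and 216 in OGD/R 1.5 h, was listed in a single control library, and in 2 OGD/R 3 h libraries with 30 and 94. These lie in a stretch on the plus strand, chr8:120672835-120672864, in which control and OGD/R 1.5 h had different cytosines called in all 3 libraries.
Cox4i1 control: ctgaaggagaaggagaaggccgaCtggagc
Cox4i1 OGD/R 1.5 h: CtgaaggagaaggagaaggcCgactggagc

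Other genes of complex IV held few sites. Cox5a had 1, 0 and 0 in the control libraries, 2 in each OGD/R 1.5 h library, and 5, 3 and 5 in OGD/R 3 h, with no overlap between any of the groups. Cox7a2l, which takes part in joining complexes III and IV, had 1, 0 and 0, then 3, 2 and 3, then 0, 1 and 0 sites, high in OGD/R 1.5 h alone, and 4 of its 6 distinct sites have a second copy. Cox6c had no site in the control libraries, 0, 1 and 0 in OGD/R 1.5 h and 3, 1 and 3 in OGD/R 3 h, and all 5 of its distinct sites have a second copy. Cox8a had 1 site, called in all 3 OGD/R 3 h libraries and in no other, with scores of 0, 2 and 4, where 0 is a value below 1 after truncation.

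**Figure D3:**
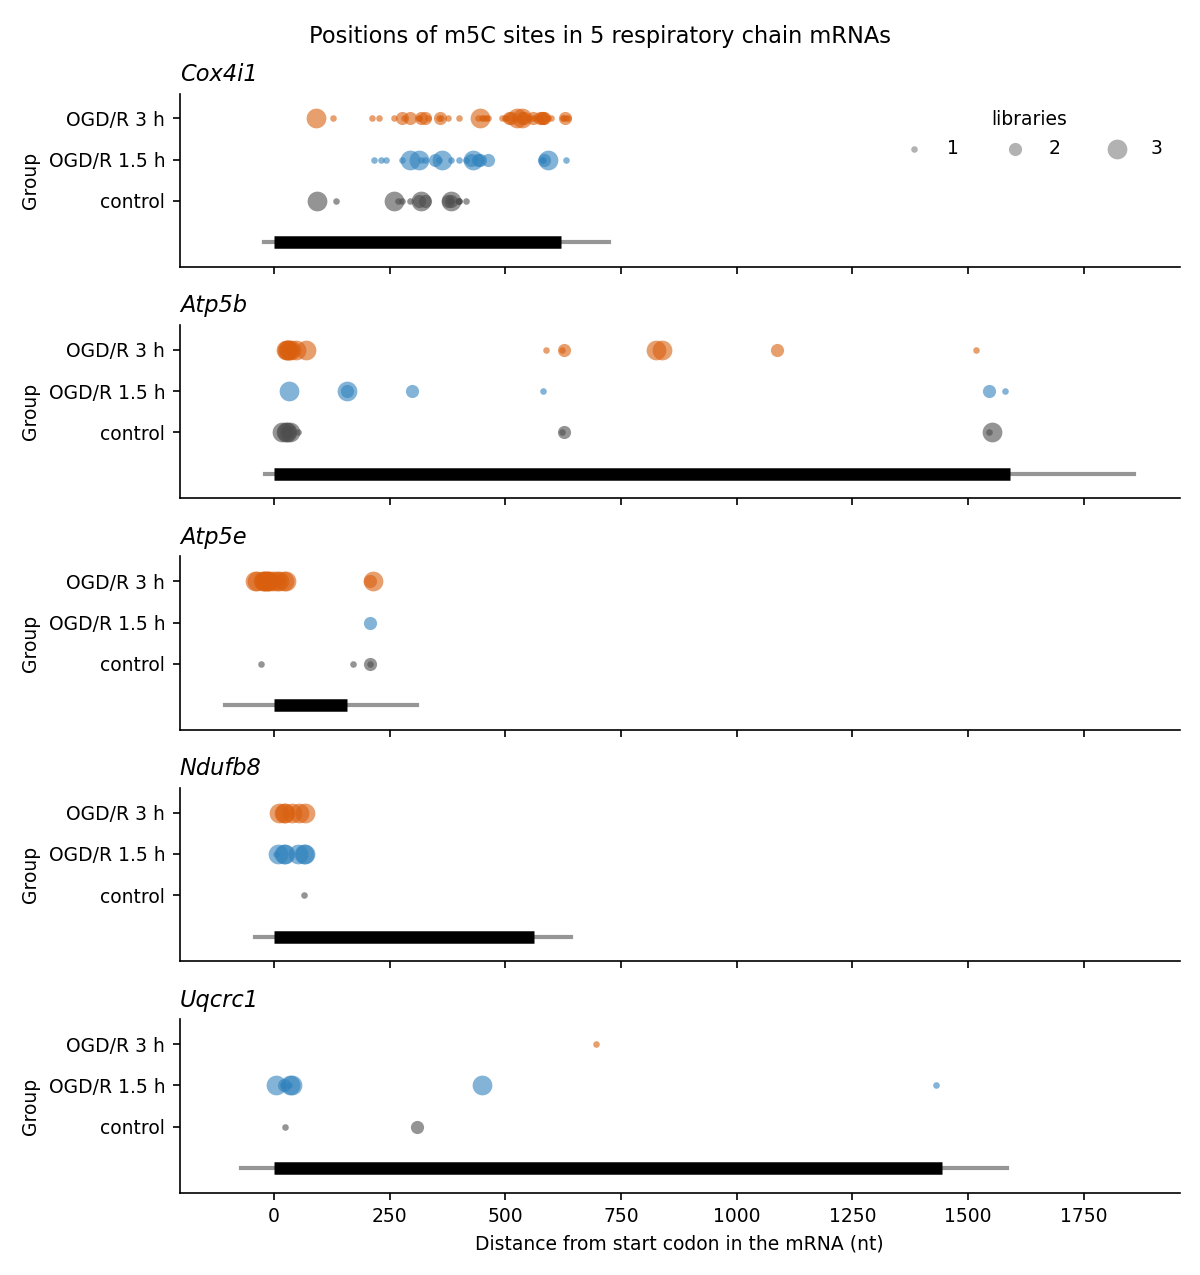
Positions of sites in 5 member mRNAs by distance from the start codon (nt), with 1 row of points for each group. The size of a point gives the number of libraries, 1 to 3, that list the site. The black bar is the coding sequence and the grey line the mRNA. Sites of Atp5e cluster at its start codon in OGD/R 3 h, and most Cox4i1 sites near the stop codon are from that group.

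In complex V, Atp5a1, the alpha subunit, had 8, 7 and 7 sites in the control libraries, 7 in each OGD/R 1.5 h library and 7, 8 and 7 in OGD/R 3 h. The counts were alike in all groups, but the union of each group held 15, 10 and 11 sites and the gene had 27 distinct sites in all. Its start codon region held 5, 5 and 4, then 3 in each library, then 1 in each, with no overlap. The remaining coding sequence held 3, 2 and 3, then 4, 3 and 4, then 6, 7 and 6. Atp5b, the catalytic beta subunit, had 6, 8 and 8 sites in the control libraries, 5, 4 and 5 in OGD/R 1.5 h, and 11, 12 and 12 in OGD/R 3 h. It was below control in OGD/R 1.5 h and above it in OGD/R 3 h, with no overlap.

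Within 100 nt of its start codon, Atp5b had 5, 4 and 6 sites in the control libraries, 1 in each OGD/R 1.5 h library and 7, 7 and 8 in OGD/R 3 h. The cytosines at positions 26 and 28 were called in all control and OGD/R 3 h libraries and in none of OGD/R 1.5 h. At position 28 the scores were 169, 69 and 51 in control and 22, 6 and 12 in OGD/R 3 h, which do not overlap. At position 26 they were 3, 150 and 18 against 10, 41 and 13, which do. The neighbour at position 32 was called in all libraries of both OGD/R groups and in no control library.

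Atp5e, the epsilon subunit of the central stalk, had 1, 3 and 1 sites in the control libraries, 0, 1 and 1 in OGD/R 1.5 h and 14, 15 and 17 in OGD/R 3 h. The OGD/R 3 h libraries stood far above all others, which overlapped with each other. In the start codon region the counts were 0, 1 and 0, then none, then 13, 13 and 15. The highest scores of this cluster were 111, 87 and 11, at position -14. Atp5d, the delta subunit of the same stalk, had 1, 0 and 1 sites in the control libraries, 3, 7 and 6 in OGD/R 1.5 h, and 5, 4 and 5 in OGD/R 3 h. Both OGD/R groups were above control and overlapped with each other.

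Among the membrane and side-stalk subunits, Atp5g3, Atp5j and Atp5md were above both other groups in OGD/R 3 h, and the others were not. Atp5g3, which forms the rotating c-ring, had 2, 3 and 2, then 1, 3 and 2, then 4, 5 and 5 sites. Its 5′UTR site at position -85 had the highest median score of any member site called in all OGD/R 3 h libraries, with scores of 124, 17 and 134, and was not listed in the other groups. Atp5j and Atp5md had no site in control or OGD/R 1.5 h, with 2, 2 and 4 and with 3, 3 and 4 in OGD/R 3 h, and 2 of the 4 Atp5md sites have a second copy. Atp5pb, the b subunit of the side stalk, had the highest median score of any member site called in all control libraries, with 127, 216 and 164 at its single site, which has a second copy and was listed in no OGD/R library.

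Respiratory chain mRNAs are short. The 53 with a site had a median length of 795 nt, from 320 to 3632, against 3254 nt over all 2607 genes with a site, and the 48 without a site had a median of 673.5 nt. The windows around the start and stop codon thus cover more of a member mRNA than of most others, and shares of sites per region are given beside densities per 1000 cytosines of the same region. A short mRNA that enters only by having a site has a high density by construction, so densities are compared between regions.

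The start codon region, the 100 nt on either side of the start codon, held 51.6 ± 2.98% of member sites per library in the control libraries, 51.5 ± 1.65% in OGD/R 1.5 h and 45.7 ± 2.97% in OGD/R 3 h. The control and OGD/R 1.5 h libraries overlapped, and OGD/R 3 h, at 42.3% to 47.7%, lay below both. This order depends on the sites taken: with scores of at least 10 the shares were 31.3%, 38.4% and 43.8%, highest in OGD/R 3 h, and with sites called in all 3 libraries 68.2%, 78.0% and 71.4%, with control lowest. Over all mRNA sites the shares were 27.8 ± 1.92%, 23.1 ± 1.63% and 30.8 ± 2.32%. In members with a site, the union of libraries held 27.0 sites per 1000 cytosines of the start codon region in the control libraries, 30.1 in OGD/R 1.5 h and 34.8 in OGD/R 3 h. The coding sequence outside the codon regions held 10.9, 14.9 and 20.5, the stop codon region 8.08, 9.97 and 25.1, and the 3′UTR 0.670, 1.51 and 4.19. All mRNAs with a site had 16.3, 14.2 and 23.6 in the start codon region, 4.08, 5.04 and 6.76 in the coding sequence and 4.15, 4.35 and 7.39 in the stop codon region.

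The density in the stop codon region of OGD/R 3 h rests on Cox4i1. Without this gene, an alternative chosen after seeing the data, the stop codon region held 8.42, 7.58 and 13 sites per 1000 cytosines in the 3 groups, the coding sequence 6.59, 10.8 and 14.6, and the start codon region 27.0, 30.7 and 35.0. The share of the start codon region per library was then 61.0 ± 4.21%, 61.0 ± 1.78% and 55.3 ± 2.15%.

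**Figure D4:**
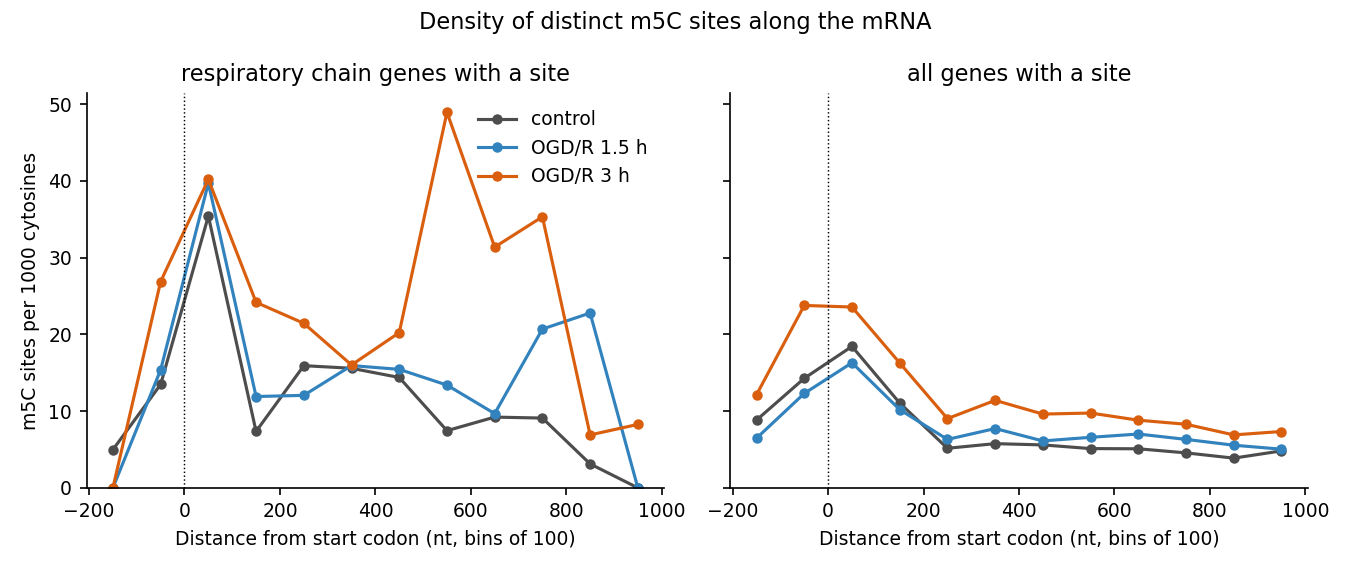
Distinct sites per 1000 cytosines in bins of 100 nt from the start codon, for respiratory chain genes with a site (left) and all genes with a site (right), with 1 line per group. In members the bin from 0 to 99 nt is at 35.4 to 40.2 in the 3 groups, and OGD/R 3 h has a further peak of 48.9 at 500 to 599 nt.

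In steps of 100 nt, the density of member sites was at 35.4 per 1000 cytosines in the control libraries, 39.7 in OGD/R 1.5 h and 40.2 in OGD/R 3 h in the bin that starts at the start codon. In the next bin it was at 7.35, 11.9 and 24.2. The peak of OGD/R 3 h at 500 to 599 nt, 48.9, was at 15.4 without Cox4i1. The value at 700 to 799 nt was 35.3 with Cox4i1 and 35.6 without it. Of the 16 OGD/R 3 h sites in that bin, 8 are in Ndufa10 and most of the others in Ndufv2. Just upstream of the start codon, from -100 to -1, OGD/R 3 h had 26.9, with 15.4 for OGD/R 1.5 h and 13.5 for control. All mRNAs had 23.8, 12.3 and 14.3 in the same order. Of the 24 member sites there in OGD/R 3 h, 9 are in Atp5e, and without it, an alternative chosen after seeing the data, the values were 17.6, 16.1 and 12.8.

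The regions differed among the complexes. In complex V the start codon region held 20 of 41 distinct sites in the control libraries, 18 of 36 in OGD/R 1.5 h and 43 of 69 in OGD/R 3 h. In complex I it held 16 of 29, 23 of 54 and 17 of 59, while sites in the coding sequence numbered 11, 26 and 31. In OGD/R 3 h the share was 62.3% in complex V and 28.8% in complex I. Atp5e supplies 15 of the 43 sites of complex V, and without it the shares were 51.4%, 51.4% and 53.8%, nearly level. In complex IV, most of whose sites are in Cox4i1, the start codon region held 2 of 19, 8 of 34 and 9 of 66, and the stop codon region 0, 6 and 25.

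Few sites were shared between groups. Of the 152 member sites in the union of OGD/R 1.5 h, 21 were also in control, or 13.8%, with an exact 95% binomial interval of 8.76% to 20.3% that covers counting error only, and these were 21.2% of the 99 control sites. Of the 217 in OGD/R 3 h, 27 were also in control, or 12.4% (8.36% to 17.6%), which is 27.3% of the control sites. The OGD/R groups shared 32 sites, 14.7% of OGD/R 3 h and 21.1% of OGD/R 1.5 h. Over all mRNA sites, 26.3% of OGD/R 1.5 h and 16.9% of OGD/R 3 h were also in control. These were 27.2% and 20.5% of all control mRNA sites. The OGD/R groups shared 18.3% of the OGD/R 3 h mRNA sites and 21.4% of those of OGD/R 1.5 h. With only sites called in all 3 libraries of a group, 1 of 41 in OGD/R 1.5 h and 2 of 77 in OGD/R 3 h were shared with control, or 2.44% and 2.6%, against 23.1% and 9.75% over all mRNA sites. Of the 397 member sites, 9 were found in all 3 groups, and 60, 108 and 167 in control, OGD/R 1.5 h or OGD/R 3 h only. The latter are 15.1%, 27.2% and 42.1% of member sites, against 23.4%, 24.1% and 33.4% of all mRNA sites.

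Libraries of the same group shared more. Pairs of control libraries shared 30% to 39.5% of the member sites of both, pairs of OGD/R 1.5 h 38.0% to 42.0%, and pairs of OGD/R 3 h 42.9% to 52.3%. Between groups the range over all pairs was 2.4% to 8.54%. All mRNA sites showed the same contrast, so it was not particular to members. For them, pairs of control libraries shared 39.97% to 40.86% and pairs of OGD/R 1.5 h 29.75% to 30.61%. Pairs of OGD/R 3 h shared 42.83% to 45.36% of all mRNA sites, and pairs between groups 6.524% to 10.74%. Within a group, 22 of 99 member sites were called in all 3 libraries in the control libraries, 41 of 152 in OGD/R 1.5 h and 77 of 217 in OGD/R 3 h. Sites of a single library made up 63.6%, 59.2% and 51.2%, against 53.2%, 65% and 52.9% over all mRNA sites.

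No member site was called in all 9 libraries, nor in 7 or 8. The most were 6, at 14 sites, of which 3 were in Ndufb8, 3 in Cox4i1, 3 in Atp5b, 2 in Atp5a1 and 1 each in Ndufb10, Atp5e and Sdhaf1. Of these, the site of Atp5e at position 208 was called in 2 libraries of every group, with scores of 66 and 123 in the control libraries, 27 and 123 in OGD/R 1.5 h, and 16 and 34 in OGD/R 3 h. Between OGD/R 3 h and OGD/R 1.5 h, 6 member sites were called in all 6 libraries, and the scores of 1 did not overlap. This is 16.7%, against 28.1% of the 203 such sites over all mRNAs. The median score of member sites per library was 7, 18 and 12 in the control libraries, 11, 8.5 and 15 in OGD/R 1.5 h, and 12, 10 and 7.5 in OGD/R 3 h, so that the groups overlapped.

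The bases after the methylated cytosine were compared with all cytosines of the same mRNAs. Sites followed by G (CG) made up 37.0 ± 5.99% of member sites per library in the control libraries, 23.7 ± 3.22% in OGD/R 1.5 h and 27.0 ± 2.46% in OGD/R 3 h, against 15.5%, 15% and 15.1% of all cytosines of these mRNAs. Over all mRNA sites CG made up 27.4 ± 0.518%, 22 ± 0.891% and 21.0 ± 0.726%. Sites in CHH, where H is any base but G, made up 29.3 ± 0.948%, 45.1 ± 1.92% and 41.6 ± 3.36% of member sites, against 58.9%, 59.3% and 58.4% of all cytosines. CHH was lower in every control library than in every OGD/R library, and CG was higher in every control library than in every OGD/R library. All mRNA sites had CHH at 33.3 ± 0.512%, 38.2 ± 1.20% and 41.9 ± 1.12%, and both orders held there too.

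The motif CNGGG, in which the first C is the site and N any base, made up 4.45 ± 1.05% of member sites per library in the control libraries, 5.55 ± 1.10% in OGD/R 1.5 h and 3.74 ± 0.637% in OGD/R 3 h. It is found at 2.30%, 2.25% and 2.29% of all cytosines of the same mRNAs, and at 4.02 ± 0.296%, 3.51 ± 0.0257% and 3.32 ± 0.0837% of all mRNA sites. The member values rest on 3, 8 and 10 distinct sites and overlapped between the groups. The motif CTCCA was at 1 member site, in OGD/R 3 h, and makes up 0.531% of the cytosines there.

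Other gene lists were set beside the respiratory chain. The 13 subunits encoded in the mitochondrial genome, which join the nuclear ones in complexes I, III, IV and V, had a site in 9 genes. They held 4, 9 and 8 sites in the control libraries, 7, 11 and 11 in OGD/R 1.5 h, and 40, 30 and 32 in OGD/R 3 h. Control and OGD/R 1.5 h overlapped, and OGD/R 3 h stood above both. In 5 of these genes the OGD/R 3 h libraries were above control, and none was below, beside 18.6% and 18.7% of all genes. COX1, the catalytic subunit of complex IV, went from 3, 3 and 4 sites in control to 10, 10 and 11 in OGD/R 3 h, with 3, 4 and 2 in OGD/R 1.5 h.

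The citrate cycle and pyruvate dehydrogenase list, which feeds the chain, had a site in 7 of 18 genes, with 7, 5 and 6 sites in the control libraries, 12, 14 and 7 in OGD/R 1.5 h, and 31, 27 and 19 in OGD/R 3 h. Dlst, a part of 2-oxoglutarate dehydrogenase, held 34 of its 74 distinct sites. In the list, 4 genes were above control in every OGD/R 3 h library and none was below, with the same shares over all genes. Carriers and porins of the mitochondrial membranes had a site in 5 of 6 genes, with 6, 6 and 5, then 10, 10 and 18, then 28, 20 and 15 sites, led by Vdac1, the main porin of the outer membrane. Slc25a3, the phosphate carrier, had 1 site in each control library, 5, 8 and 5 in OGD/R 1.5 h, and 7, 6 and 5 in OGD/R 3 h. Of 27 other assembly factors, 2 carried a site, Cox17 and Timmdc1, with none in the control libraries, 0, 1 and 1 in OGD/R 1.5 h and 3, 4 and 3 in OGD/R 3 h. None of 8 tissue isoforms among the members carried 1.

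Cytosolic ribosomal protein mRNAs are of similar number, 91 genes, and 29 had a site. They held 18, 16 and 21 sites in the control libraries, 24, 18 and 17 in OGD/R 1.5 h, and 51, 47 and 44 in OGD/R 3 h, a log2 ratio to control of 0.10 and 1.37. Glycolytic enzymes had a site in 9 of 20 genes, with 14, 18 and 12, then 20, 20 and 22, then 46, 29 and 29 sites, a log2 ratio of 0.49 and 1.24. The respiratory chain was at 0.70 and 1.35, the citrate cycle list at 0.87 and 2.10, and carriers and porins at 1.16 and 1.89. The mitochondrially encoded subunits were at 0.47 and 2.28. In OGD/R 1.5 h the respiratory chain was above the ribosomal, glycolytic and mitochondrially encoded lists and below the other 2. In OGD/R 3 h it was near the ribosomal and glycolytic lists and below the others, with the mitochondrially encoded list highest. Aldoa held 50 of the 102 distinct glycolytic sites. Per 1000 mRNA sites, ribosomal protein mRNAs were at 4.67 ± 0.834, 5.48 ± 1.21 and 9.63 ± 0.326, and glycolytic mRNAs at 3.70 ± 0.598, 5.73 ± 0.125 and 6.99 ± 1.51.

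**Figure D5:**
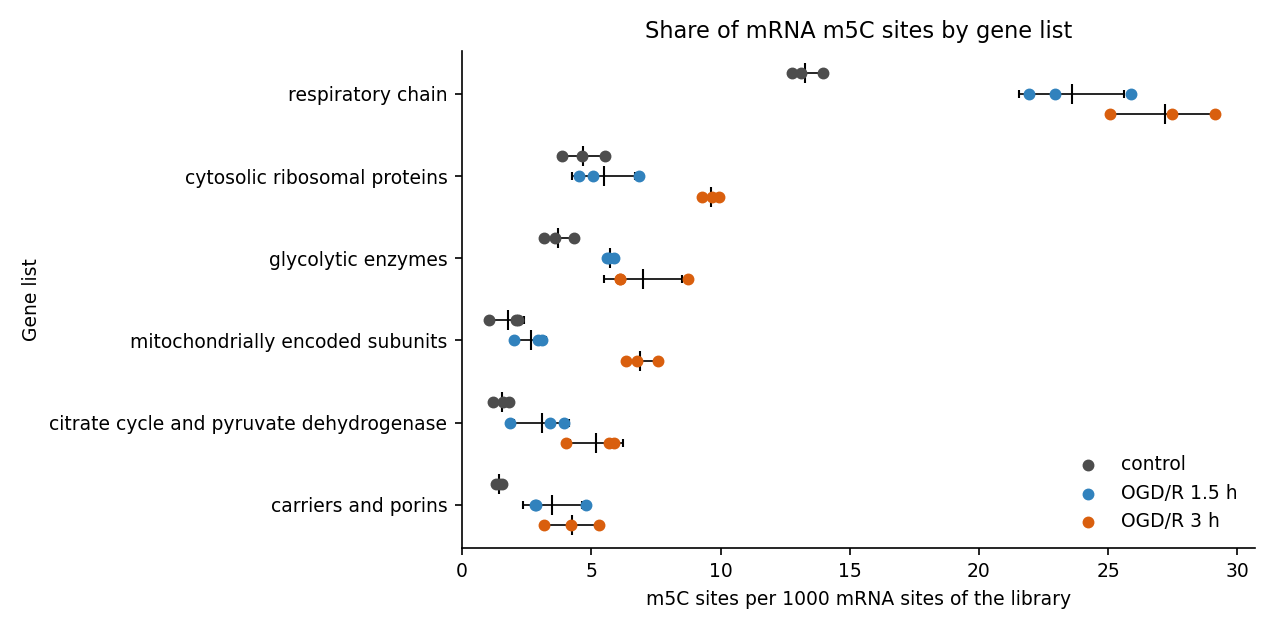
Sites per 1000 mRNA sites of the library for the respiratory chain and 5 other gene lists. Points are libraries, the tick is the group mean and the bar the SD over 3 libraries. The respiratory chain lies at 12.8 to 13.9 in control and at 21.9 or more in every OGD/R library.

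Of the member genes, 48 carried no site. They were 20 of complex I, among them the core subunits Ndufs3, Ndufs7, Ndufs8 and Ndufv1, then Sdhd, Uqcrb and Cycs, 11 of complex IV, 4 of complex V and 10 assembly factors. Without a site in complex V were Atp5g1, Atp5g2, Atp5h and Atp5l. The complex IV genes without a site were Cox4i2, Cox5b, Cox6a2, Cox6b2, Cox7a1, Cox7a2, Cox7b, Cox7b2, Cox7c, Cox8b and Cox8c. Of the 397 sites, 41 in 17 genes, or 10.3%, lie in stretches that have a near-identical second copy in the genome, with 6.06% of the sites in the control libraries, 9.87% in OGD/R 1.5 h and 10.1% in OGD/R 3 h. Of member sites, the share whose nearest neighbour in a library lay at most 10 nt away was 47.1 ± 1.89% in the control libraries, 38.1 ± 1.03% in OGD/R 1.5 h and 54.9 ± 4.54% in OGD/R 3 h, close to the 46.7%, 39.6% and 51.1% of all mRNA sites.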

How the data were processed

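The deposited lists give m5C sites of 9 bisulfite libraries, 3 for each of the groups. The record says that mock reads also went into them, and the 9 mock libraries were not analysed here. According to the notes, Cutadapt 1.9.3 trimmed the reads, meRanGh placed them on mm10 and meRanCall found the sites, keeping those with a level of 0.1 or more and 10 or more reads. The score deposited for a site by the authors is 10 times the call score of meRanCall, truncated and capped at 1000, and is not normalized for depth. Sites were placed on exons of curated RefSeq transcripts and of mitochondrial genes, on the same strand, with 1 transcript per gene, the one that holds the most sites. Codon regions are 100 nt on either side. Near-identical copies were searched with BLAST+ 2.17.0, with 50 nt of mRNA on either side of each site and hits of at least 90 nt and 95% identity outside the gene. Python 3.11.15, numpy 2.4.6, scipy 1.17.1, pysam 0.24.0 and matplotlib 3.10.9 were used. Genes named were taken from the 4 with most distinct sites of each complex, those without overlap in at least 2 of the 3 pairs of groups, and those with the highest median score in a group. Members and lists were chosen with earlier results of these data known.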

Additional observations from a re-analysis of the deposited data

Results flagged for a closer look

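The count of Atp5b sites stood below control in every OGD/R 1.5 h library and above it in every OGD/R 3 h library, with 5, 4 and 5 against 6, 8 and 8 and with 11, 12 and 12 sites. The mean was 7 sites per library higher after 3 h than after 1.5 h of OGD. The difference was not tested.

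Sites within member genes but outside their exons were not part of the comparisons above. On the strand of the gene they were found in introns of Atp5b alone, with 0, 3 and 1 sites in control, 15 in each OGD/R 1.5 h library, and 22, 0 and 18 in OGD/R 3 h. Of the 22 distinct sites, 15 lie in Snord59a, a small nucleolar RNA, and 7 in Mir677, a microRNA, both of which the annotation places within Atp5b. OGD/R 1.5 h stood above control in every library, with a mean of 15. OGD/R 3 h did not, since replicate 2 listed none.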

How the results depend on the processing

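Alternatives were run on the log2 ratio of member sites to control (0.70 for OGD/R 1.5 h and 1.35 for OGD/R 3 h), the difference in sites per 1000 mRNA sites (10.3 and 13.9), the log2 ratio of member genes with a site (0.45 and 0.50), the percent of sites shared with control (13.8 and 12.4), the genes with higher counts (11 and 19) and lower counts (6 and 4), and the percent of sites in the start codon region (51.6, 51.5 and 45.7 with control first) and in CNGGG (4.45, 5.55 and 3.74). Settings for the codon window, the motif and the scale were run only on the results they bear on. Both OGD/R groups kept their direction against control in sites, sites per 1000 mRNA sites and genes with a site, and leaving out any library moved none of these values beyond the limits set. The log2 ratio of sites of OGD/R 3 h to OGD/R 1.5 h, 0.65, stayed above 0 throughout, at 0.63 with scores of at least 10, 0.91 with sites called in all 3 libraries, 0.81 in at least 2, 0.19 with isolated sites and 0.43 without Cox4i1, Atp5e and Ndufb8. On the other scales their order did not hold: OGD/R 3 h minus OGD/R 1.5 h, 3.63 per 1000 mRNA sites, became -1.01 with scores of at least 10, -2.21 with sites called in all 3 libraries and -0.237 without Cox4i1, Atp5e and Ndufb8, and the log2 ratio of their genes with a site, 0.046, became -0.070 with isolated sites. Between them, 12 genes higher and 6 lower became 9 and 11 with counts divided by the mRNA sites of the library. The start codon region share of OGD/R 3 h, below control at first, was above it with scores of at least 10 and with sites called in all 3 libraries. With sites called in all 3 libraries, the site ratios were 0.90 and 1.81, the differences 20.1 and 17.9, the gene ratios 0.85 and 1.14, the shared percent 2.44 and 2.6, the start codon region 68.2, 78.0 and 71.4, and CNGGG 9.09 for control and 2.6 for OGD/R 3 h. With sites called in at least 2 libraries, they were 1.62 for OGD/R 3 h, 15.1 and 16.4, 0.70 and 0.89, a shared 6.45 for OGD/R 1.5 h, 58.6, 61.9 and 57.2, and CNGGG 6.42 for control and 2.77 for OGD/R 3 h. With scores of at least 10, OGD/R 3 h had a site ratio of 1.23, a difference of 11.1 and a gene ratio of 0.68. At that setting the genes with higher counts were 3 and 11, and those with lower counts 4 and 3. The start codon region then held 31.3, 38.4 and 43.8, and CNGGG was 6.69 in OGD/R 1.5 h and 5.31 in OGD/R 3 h. With isolated sites, none other within 10 nt, the site ratios were 0.93 and 1.12, the OGD/R 3 h difference 11.8, the OGD/R 1.5 h gene ratio 0.53, the shared percent 6.54 and 7.27, the higher genes of OGD/R 3 h 11, the lower genes of OGD/R 1.5 h 3, the start codon region 40.9, 44.1 and 37.9, and CNGGG 8.47 for control and 7.22 for OGD/R 3 h. Without sites that have a near-identical copy, the OGD/R 3 h site ratio was 1.28, the OGD/R 1.5 h start codon region 49.4 and CNGGG 2.71 in control. Without assembly factors, the OGD/R 3 h ratio was 1.43 and the start codon region 48.3 in control. Per 1000 sites of any kind, the differences were 6.47 and 9.22. With 50 nt around the codon, the start region held 36.3, 34.6 and 33.2, and CNGG in place of CNGGG held 12.7, 11.9 and 12.7. Chosen after seeing the data, leaving out Cox4i1 gave an OGD/R 3 h difference of 11.2, a start codon region of 61.0, 61.0 and 55.3 and CNGGG of 3.10 in control. Leaving out Cox4i1, Atp5e and Ndufb8 gave differences of 7.62 and 7.39, an OGD/R 3 h site ratio of 1.10, a start codon region of 62.4 for control and 57.8 for OGD/R 1.5 h, and CNGGG of 3.24 in control; the cause was not tested. No paired analysis was possible because no result comes from a test.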

Other observations

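On the strand opposite to a member gene, 3 distinct sites were found, all in the span of Sdhaf1, with 1, 0 and 0 in the control libraries, 2, 1 and 1 in OGD/R 1.5 h and none in OGD/R 3 h. A score at the cap of 1000 was listed once among member sites, for Sdhaf1 in OGD/R 1.5 h replicate 2.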
